A study of Mus musculus with 16 samples.

Results

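The genes described here encode 3 classes of conjugating enzyme: sulfotransferases, UDP-glucuronosyltransferases (UGTs) and glutathione transferases (GSTs), the last including the microsomal GSTs. Members were the protein-coding genes of the deposited table whose symbols begin with Sult, Ugt1a, Ugt2a, Ugt2b, Ugt3a or Mgst, or with Gst followed by a class letter (a, k, m, o, p, t or z) and a number. The rule used no expression value. It took 67 of 54532 genes (22046 of them protein coding), namely 21 sulfotransferases, 21 UGTs, 22 soluble GSTs and 3 microsomal GSTs.

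The 16 RNA-seq libraries are labelled as mouse hepatocytes, entered as a cell line with no line name. Monoculture was hepatocytes alone (n = 3). The wild-type (WT) and knockout (KO) co-cultures held hepatocytes with cancer cells that carry or lack Phgdh, the gene of the first enzyme of serine synthesis (n = 3 each). Both co-cultures were also sampled with CXCR2i, an inhibitor of the chemokine receptor CXCR2 (WT, n = 3; KO, n = 4). The genotype belongs to the cancer cells, and the series title speaks of hepatocytes that supply serine to liver metastases of pancreatic cancer. The design text of the series instead names HY19636 cancer cells as the sequenced material, and the labels were followed here. The sources used here do not give the inhibitor's name or dose, the culture times, any vehicle, or how the cells were co-cultured and separated. No monoculture with CXCR2i was analysed here, so an action on hepatocytes alone cannot be told apart from one that needs the cancer cells. The labels do not tie replicates to separate cultures. The p-values therefore reflect only how these libraries varied, which may be technical.

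Conjugation is the second phase of drug and toxin metabolism, in which a water-soluble group is joined to a compound so that it can be exported into bile or blood. Sulfotransferases take sulfate from the donor PAPS, UGTs take glucuronic acid from UDP-glucuronate, and GSTs join the thiol of glutathione to electrophiles, including toxins and products of lipid peroxidation. The liver is the main site of these reactions, and transcription factors such as NRF2, AHR, PXR (Nr1i2) and CAR (Nr1i3) are known to control many of the genes.

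The recovered depth was 15.0 to 21.3 M fragments per library. Of 16 listed hepatocyte markers, 12 had a mean of at least 1 FPKM over all libraries (fragments scaled by gene length and library depth). The listed Apoa2, Apoc3, Cyp2e1 and Tdo2 were not among the 12, and none of them was above 1.8 FPKM in any library. The summed level of the list was 309 to 314 FPKM in monoculture, 165 to 189 FPKM in WT and 196 to 212 FPKM in KO co-culture. With CXCR2i it was 871 to 889 FPKM (WT) and 1114 to 1171 FPKM (KO). In monoculture, lists of pancreatic epithelium and cholangiocyte markers summed higher than the hepatocyte list, to 330.1 to 342 FPKM and 1225 to 1244 FPKM. Phgdh itself was read at 193 to 207 FPKM in the 9 libraries without CXCR2i, KO co-culture included, and at 146 to 160.2 FPKM with it, so it gives no check of the cancer cells' genotype. Cxcr2 was listed at 0 in 14 libraries, with 4 and 2 fragments in the others, and Cxcr1 at 0 in all 16. WT co-culture replicate 1 stood apart from its group, with a chi-square per gene of 20.9 and 17.5 against the other replicates, compared with 2.57 to 8.40 for all other replicate pairs.

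Of the 67 members, 28 had a mean of at least 1 FPKM over the 16 libraries and were tested: 3 sulfotransferases, 5 UGTs, 17 soluble GSTs and all 3 microsomal GSTs. The other 39 comprised 8 listed at 0 in every library, 22 that stayed under 0.5 FPKM and 9 that reached 0.5 FPKM somewhere. Just outside the filter were Gsto2 (mean 0.705 FPKM), Sult2b1 (0.468) and Ugt1a6a (0.464), and just inside were Gstp2 (1.18), Ugt1a7c (1.34) and Gsta1 (1.47). Of the tested members, 7 (Gsta1, Gstp2, Sult1a1, Sult1d1, Ugt1a7c, Ugt1a9 and Ugt2b36) were under 1 FPKM on average in at least 1 group and passed through the others, so counts over the 28 are a description of this set.

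Promoter stretches are shown for Gsta3, Gstp3 and Sult1a1, which the results below turn on: a gene that fell in co-culture and rose with CXCR2i, a gene that rose in both, and the gene with the largest rise with CXCR2i. They come from RefSeq (GRCm38.p6), run 5′ to 3′ on the gene's strand, and are limited to bases that no exon of GENCODE M21 overlaps. Capitals mark matches to TGACNNNGC (the core of the antioxidant response element bound by NRF2), GCGTG (the core bound by AHR) or TTGCNNAA (a C/EBP-type site), searched on both strands of the 250 bases before the start.
Gsta3: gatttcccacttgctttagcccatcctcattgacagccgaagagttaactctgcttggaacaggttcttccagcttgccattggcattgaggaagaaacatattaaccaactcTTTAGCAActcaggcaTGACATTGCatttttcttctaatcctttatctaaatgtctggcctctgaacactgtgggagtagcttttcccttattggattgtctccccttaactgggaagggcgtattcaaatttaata
Gstp3: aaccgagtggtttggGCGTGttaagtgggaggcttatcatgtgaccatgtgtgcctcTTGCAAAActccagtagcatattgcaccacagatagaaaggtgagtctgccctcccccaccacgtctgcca
Sult1a1: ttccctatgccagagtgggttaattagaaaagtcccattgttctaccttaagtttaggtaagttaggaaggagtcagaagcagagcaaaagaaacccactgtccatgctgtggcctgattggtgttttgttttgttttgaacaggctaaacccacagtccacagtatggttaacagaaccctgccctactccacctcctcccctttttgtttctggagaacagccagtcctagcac

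The Gsta3 stretch lies at chr1:21240335-21240584 (plus strand), with TGACNNNGC beginning 121 bases and a reverse TTGCNNAA 137 bases before the start. The Gstp3 stretch, chr19:4059570-4059697 (minus strand), covers bases 250 to 123 before the start, with GCGTG at 235 and TTGCNNAA at 193 bases. The Sult1a1 stretch, chr7:126676433-126676668 (minus strand), covers bases 250 to 15 and holds none of the 3 motifs, which says only that these letters are not there. RefSeq windows matched 59 members, 25 of them tested. TGACNNNGC was found for 4 tested members (Gsta3, Gstm5, Gstm7 and Mgst1) and in 10.2% of all 32851 windows of the same length. GCGTG was found for 6 (Gstm1, Gstm5, Gstp1, Gstp3, Mgst3 and Sult1d1) and in 28.2% of windows, and TTGCNNAA for 6 (Gsta3, Gstm2, Gstp3, Gstt1, Mgst1 and Ugt2b36) and in 9.56%. Members were counted by gene, with 71 windows for the 59 matched members, while the percentages are of single windows, so these measures are not alike. These matches are descriptions of the sequence only.

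In co-culture, the conjugation genes split. Against monoculture, 13 of the 28 tested members fell and 7 rose in WT co-culture, and 12 fell and 7 rose in KO co-culture, by limma at an adjusted p under 0.05. Over all 11395 genes tested, 62% were called in WT co-culture (30.1% higher, 31.9% lower) and 61.5% in KO co-culture (30.3% higher, 31.2% lower), so being called was common in these data. At 2-fold or more, 8 members fell and 2 rose in each co-culture, where 6.35% and 6.21% of all genes fell and 2.6% and 2.37% rose that far. The median log2 fold change of the tested members was -0.32 in WT and -0.10 in KO co-culture, against 0.01 over all genes in both. Monoculture is shared by both comparisons, so they are not independent. Fold changes throughout are differences of log2(FPKM + 1), which understate changes of low genes, and ± marks their SE.

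With CXCR2i most of the tested members were higher than in the same co-culture without it. In WT co-culture 20 rose and 5 fell, and in KO co-culture 21 rose and 5 fell, where 66.6% (33.5% higher, 33% lower) and 69.5% (34.8% higher, 34.7% lower) of all genes were called. At 2-fold or more, 15 members rose in WT and 14 in KO co-culture and none fell that far, against 7.59% and 7.79% of all genes higher and 2.89% and 3.11% lower. The median log2 fold change was 1.04 in WT and 0.96 in KO co-culture, against -0.01 over all genes in both. The 5 that fell were Gstm4, Gstm5, Gsto1, Gstt2 and Ugt2b34 in both genotypes. Leaving out WT co-culture replicate 1 left the WT counts at 7 up and 13 down in co-culture and 20 up and 5 down with CXCR2i.

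Other transcripts moved with CXCR2i as well. All 12 tested hepatocyte markers, of 16 listed, rose in both genotypes (Alb by 3.74 ± 0.06 in WT and 4.01 ± 0.05 in KO co-culture). Markers were filtered by their mean over all libraries, so a gene high only with CXCR2i could pass through those libraries. Counts of tested markers are thus descriptions of these sets. Of 12 pancreatic epithelium markers, Krt19, Krt20, Krt7 and Msln were tested and rose, with Agr2 and Tff1 at 0 in every library. The summed level of that list was 330.1 to 342 FPKM in monoculture, 218 to 246 FPKM in WT and 209 to 226 FPKM in KO co-culture, and 670.2 to 721 FPKM and 628 to 658 FPKM with CXCR2i. Cholangiocyte markers (5 of 8 tested) summed to 1225 to 1244 FPKM in monoculture, 411 to 448 FPKM in the co-cultures and 554 to 602 FPKM with CXCR2i. Gene by gene, 4 of the 5 rose and 1 fell with CXCR2i in both genotypes. Against monoculture, 3 were higher and 2 lower with CXCR2i, although the sum was lower. Of 8 Kupffer cell markers Cd14 and Cd68 were tested, and both rose with CXCR2i, while Adgre1, Clec4f and Marco were at 0. That list summed to 114 to 117 FPKM in monoculture, 44.6 to 49.9 FPKM in the co-cultures and 103 to 109.5 FPKM with CXCR2i. Of its 2 tested genes, 1 was higher and 1 lower than monoculture in WT co-culture, and 1 was lower in KO co-culture. No stellate, endothelial or neutrophil marker reached a mean of 1 FPKM. In such bulk libraries a different share of cells and a different RNA amount per cell cannot be told apart, and the part of these markers in the results was not tested.

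**Figure D1:**
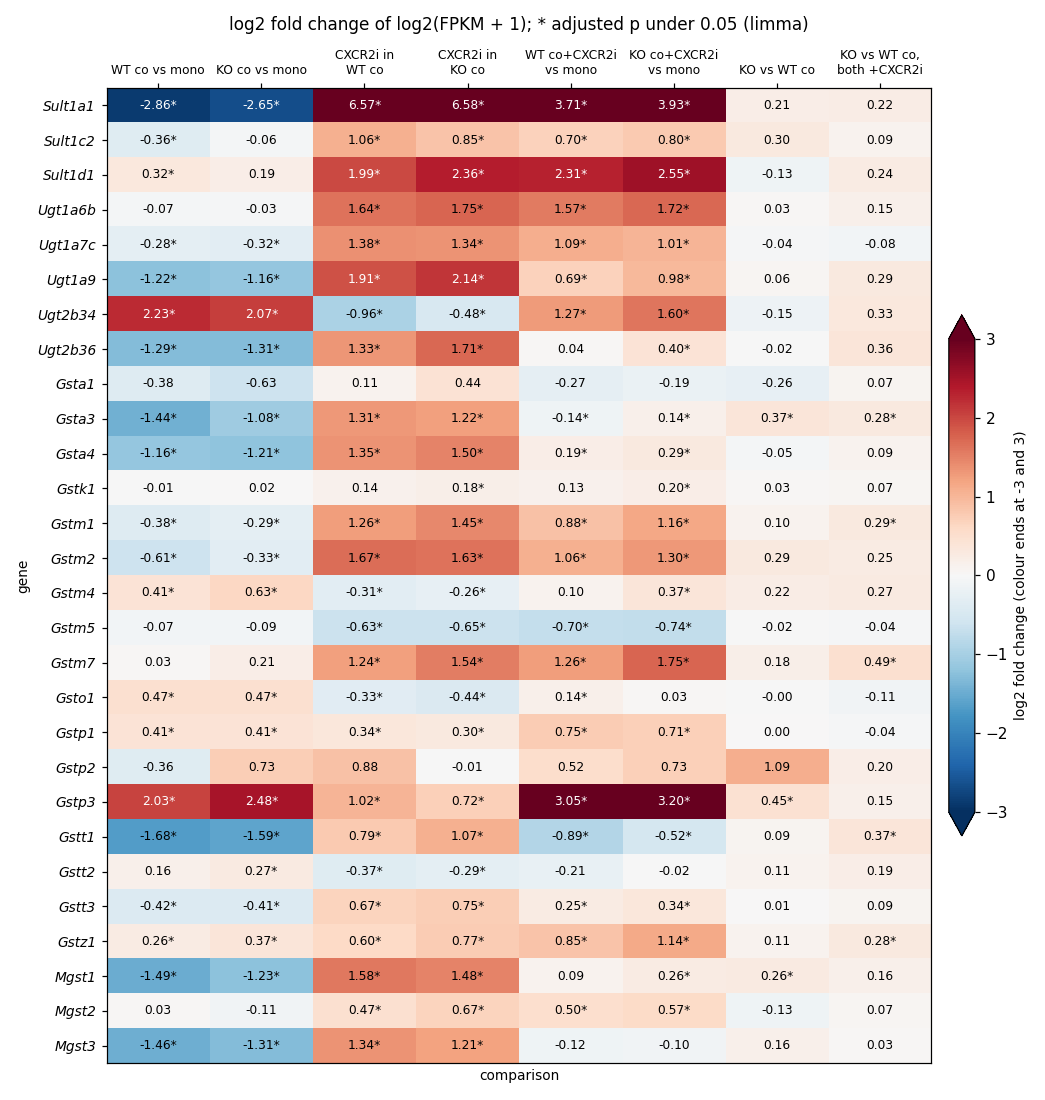
Heat map of the log2 fold change of log2(FPKM + 1) for the 28 tested members (rows) in 8 comparisons (columns), with the value in each cell, an asterisk where limma's adjusted p was under 0.05, and colours that end at -3 and 3. The CXCR2i columns are mostly red, the co-culture columns hold both colours, and the columns of KO against WT hold 3 and 5 asterisks.

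The sulfotransferases were led by Sult1a1 (ENSMUSG00000030711, chromosome 7, 126672865 to 126676432, GRCm38), which sulfonates phenols. It was at 8.43, 8.19 and 7.66 FPKM in monoculture, 0.412, 0.105 and 0.253 FPKM in WT co-culture, and 0.360, 0.283 and 0.735 FPKM in KO co-culture. With CXCR2i it was at 119.6, 114 and 121 FPKM in WT and 150.3, 133, 129.6 and 138 FPKM in KO co-culture. All 6 co-culture libraries without the inhibitor lay below all monoculture libraries, and all 7 with it lay above them, with no overlap. Its log2 fold change was -2.86 ± 0.10 in WT (adjusted p = 6.09e-12) and -2.65 ± 0.10 in KO co-culture (adjusted p = 1.52e-11). With CXCR2i it rose by 6.57 ± 0.10 in WT (adjusted p = 1.66e-15) and 6.58 ± 0.10 in KO co-culture (adjusted p = 6.47e-16), rank 1 of the 11395 genes in both. The mean FPKM was 460.3 times as high with CXCR2i in WT and 299.7 times as high in KO co-culture, over 21 and 40 recovered fragments in the co-culture libraries without it. Against monoculture Sult1a1 with CXCR2i was higher by 3.71 ± 0.10 (WT) and 3.93 ± 0.10 (KO). With a pseudocount of 0.1 FPKM in place of 1 the rises with CXCR2i were 8.47 and 8.03, and with limma-voom on recovered fragments 8.99 and 8.36. Sult1a1 overlaps Sgf29 on the opposite strand, and Sgf29 (mean 16.8 FPKM) passed the threshold in none of the 9 comparisons, with log2 fold changes of -0.16 to 0.11.

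Sult1d1, a mouse sulfotransferase that acts on catecholamines, was low without CXCR2i, at 0.452 to 1.09 FPKM over 9 libraries. With it Sult1d1 was at 7.42, 5.44 and 6.77 FPKM in WT and 8.33, 8.68, 6.90 and 7.62 FPKM in KO co-culture, so that every library with the inhibitor was above every library without. The rises were 1.99 ± 0.11 (adjusted p = 5.68e-10) and 2.36 ± 0.10 (adjusted p = 3.24e-11). In WT co-culture without CXCR2i it was higher than in monoculture by 0.32 ± 0.11 (adjusted p = 0.017), a call lost without monoculture replicate 1 (adjusted p = 0.0535) or WT co-culture replicate 2 (0.0783). Sult1c2, a member of the same family, was at 11.3, 12.5 and 13.2 FPKM in monoculture, 10.7, 8.60 and 8.94 FPKM in WT and 12.4, 11.1 and 11.8 FPKM in KO co-culture. It rose to 19.8, 21.2 and 20.8 FPKM in WT and 20, 24.1, 22.5 and 21.9 FPKM in KO co-culture with CXCR2i. That is 1.06 ± 0.08 (adjusted p = 2.99e-08) and 0.85 ± 0.08 (adjusted p = 1.36e-07). In WT co-culture it fell by 0.36 ± 0.08 on the log2 scale, with no overlap of libraries, while in KO co-culture the groups overlapped (-0.06 ± 0.08, adjusted p = 0.543). The other 18 sulfotransferases stayed under the filter. Of these Sult2b1, which sulfonates cholesterol, was at 0.718 to 0.860 FPKM in monoculture and 0.204 to 0.735 FPKM elsewhere, and Sult6b1 at 0.161 to 0.884 FPKM.

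**Figure D2:**
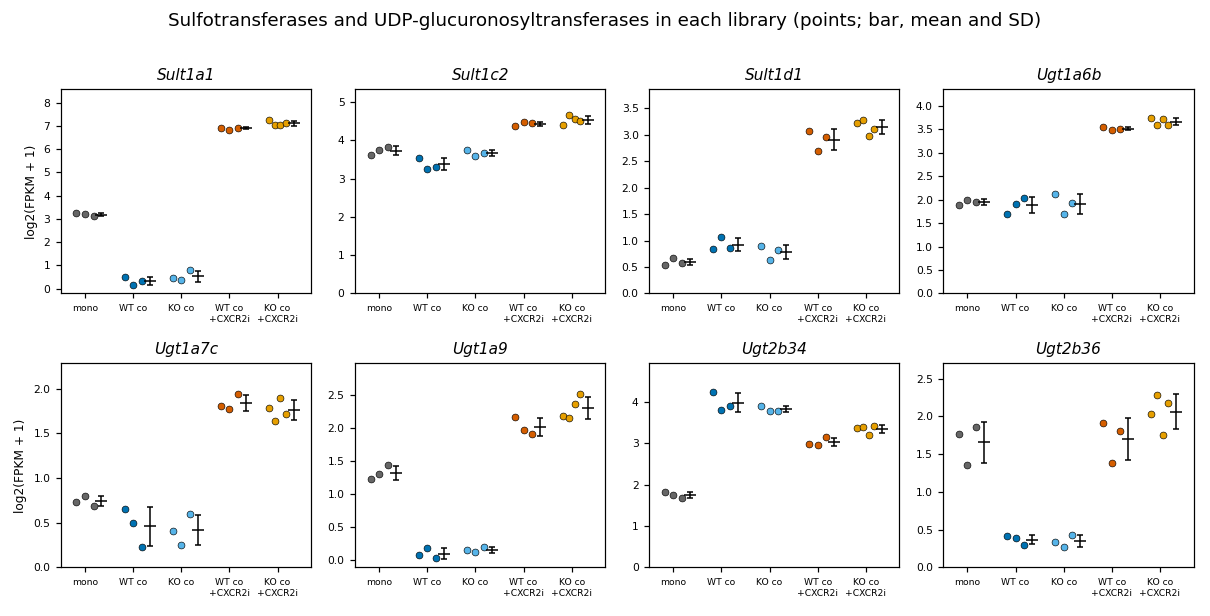
The 3 tested sulfotransferases and 5 tested UGTs, as log2(FPKM + 1) on the vertical axis (1 scale per panel) in each of the 16 libraries by group, with points for libraries and bars for mean and SD. Sult1a1 lies lowest in both co-cultures and highest with CXCR2i, and Ugt2b34 lies highest in the co-cultures without CXCR2i.

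Among the 5 tested UGTs, 1 gene rose in co-culture and fell with CXCR2i, in both genotypes. Ugt2b34 (ENSMUSG00000029260, chromosome 5, 86889767 to 86906937) was at 2.53, 2.35 and 2.21 FPKM in monoculture, 17.8, 12.9 and 14.0 FPKM in WT co-culture and 14.0, 12.7 and 12.8 FPKM in KO co-culture. With CXCR2i it was at 6.83, 6.75 and 7.80 FPKM in WT and 9.35, 9.52, 8.18 and 9.68 FPKM in KO co-culture. The libraries with CXCR2i lay between monoculture and the co-cultures without it, with no overlap. It rose by 2.23 ± 0.10 in WT (adjusted p = 4.23e-11) and 2.07 ± 0.10 in KO co-culture (adjusted p = 1.03e-10). With CXCR2i it fell by 0.96 ± 0.10 in WT (adjusted p = 5.74e-07) and by 0.48 ± 0.09 in KO co-culture (adjusted p = 0.000269), each on the log2 scale. The difference between these 2 falls did not pass the threshold (adjusted p = 0.131).

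Ugt2b36 (chromosome 5, 87065927 to 87092555) of the same cluster did the reverse. It was at 2.39, 1.55 and 2.64 FPKM in monoculture and at 0.207 to 0.350 FPKM in the 6 co-culture libraries without CXCR2i. With CXCR2i it was at 2.76, 1.62 and 2.49 FPKM in WT and 3.09, 3.87, 2.36 and 3.51 FPKM in KO co-culture, overlapping monoculture. It fell by 1.29 ± 0.16 in WT (adjusted p = 5.87e-06) and by 1.31 ± 0.16 in KO co-culture (adjusted p = 5.19e-06), and rose with CXCR2i by 1.33 ± 0.16 (adjusted p = 3.7e-06) and 1.71 ± 0.15 (adjusted p = 1.08e-07).

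The Ugt1a genes are read from 1 locus on chromosome 1, where separate first exons are joined to shared later exons, and between 50.4% and 70.9% of the 100-base windows of the 4 highest of them (Ugt1a6a, Ugt1a6b, Ugt1a7c and Ugt1a9) also occur in another gene. How the authors assigned fragments from the shared exons is not known from the sources used here, so the split among these genes is uncertain. Ugt1a9, a phenol-conjugating form, was at 1.34, 1.46 and 1.72 FPKM in monoculture and 0.0218 to 0.152 FPKM in the 6 co-culture libraries without CXCR2i, from 1 to 6 fragments each. With CXCR2i it was at 3.51, 2.90 and 2.75 FPKM in WT and 3.53, 3.45, 4.17 and 4.7 FPKM in KO co-culture, above all other libraries. Its fold changes were -1.22 ± 0.10 and -1.16 ± 0.10 in WT and KO co-culture, and 1.91 ± 0.10 and 2.14 ± 0.10 with CXCR2i. Ugt1a6b was at 2.23 to 3.33 FPKM in all 9 libraries without CXCR2i. It rose with it to 10.7, 10.2 and 10.4 FPKM in WT and 12.5, 11.1, 12.1 and 11.1 FPKM in KO co-culture (1.64 ± 0.10 and 1.75 ± 0.09). Ugt1a7c was at 0.614 to 0.743 FPKM in monoculture, 0.170 to 0.574 FPKM in the co-cultures and 2.10 to 2.83 FPKM with CXCR2i, rises of 1.38 ± 0.11 and 1.34 ± 0.11. Its falls in co-culture (-0.28 ± 0.11 in WT, adjusted p = 0.0432; -0.32 ± 0.11 in KO, adjusted p = 0.0235) were lost in 15 and 5 of 25 alternative settings. Below the filter, Ugt1a1, the bilirubin-conjugating form, was at 0 to 0.177 FPKM without and 0.185 to 0.677 FPKM with CXCR2i, and Ugt1a6a at 0.0581 to 0.230 and 0.593 to 1.07 FPKM. Ugt2b5 was at 0 to 0.0596 FPKM in the co-cultures without CXCR2i and at 0.132 to 0.590 FPKM in all other libraries.

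Of the 3 tested alpha-class GSTs, Gsta3 and Gsta4 fell in co-culture and Gsta1 did not pass. Gsta3 (ENSMUSG00000025934, chromosome 1, 21240589 to 21265661), known for detoxifying the aflatoxin epoxide in mouse liver, was at 77.4, 83.2 and 81.2 FPKM in monoculture. In co-culture it was at 29.0, 28.9 and 29.1 FPKM (WT) and 38.1, 38.3 and 36.7 FPKM (KO), and with CXCR2i at 74.5, 73.4 and 71.6 FPKM (WT) and 91.9, 91.1, 88.2 and 85.4 FPKM (KO). No 2 groups overlapped. The changes were -1.44 ± 0.04 (WT, adjusted p = 1.82e-13) and -1.08 ± 0.04 (KO, adjusted p = 3.51e-12) in co-culture and 1.31 ± 0.04 (adjusted p = 4.26e-13) and 1.22 ± 0.03 (adjusted p = 3.59e-13) with CXCR2i. Gsta4, which conjugates the lipid aldehyde 4-hydroxynonenal, was at 23.9, 29.1 and 28.0 FPKM in monoculture, 10.8, 12.3 and 11.5 FPKM in WT and 11.2, 10.5 and 11.4 FPKM in KO co-culture. With CXCR2i it was at 30.3, 32.4 and 30.0 FPKM in WT and 34.8, 32.1, 33.8 and 31.5 FPKM in KO co-culture. It fell by 1.16 ± 0.07 and 1.21 ± 0.07 on the log2 scale and rose with CXCR2i by 1.35 ± 0.07 and 1.5 ± 0.06, in WT and KO respectively. Gsta1 shares 80.6% of its windows with other genes, mainly Gm3776 and Gsta2, ranged from 0.174 to 3.55 FPKM with overlapping groups, and passed the threshold in no comparison. Gsta2, below the filter, ranged from 0.0941 to 1.17 FPKM.

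The mu class rose with CXCR2i in 3 of its 5 tested genes and fell in the other two. Gstm1 (chromosome 3, 108012255 to 108017973), a major liver GST, was at 118, 121 and 119 FPKM in monoculture, 84.5, 91.2 and 98.6 FPKM in WT and 92.7, 105 and 95.7 FPKM in KO co-culture. The CXCR2i libraries were at 219, 221 and 219 FPKM in WT and 277, 275, 267 and 255 FPKM in KO co-culture, above all other libraries. It fell by 0.38 ± 0.05 (WT) and 0.29 ± 0.05 (KO) on the log2 scale, and its rises with CXCR2i were 1.26 ± 0.05 (adjusted p = 4.86e-11) and 1.45 ± 0.05 (adjusted p = 4.08e-12). Gstm2 was at 22.6, 18.9 and 19.6 FPKM in monoculture, 10.3 to 15.3 FPKM in WT and 15.1 to 17.6 FPKM in KO co-culture. With CXCR2i it rose to 40.4, 48.6 and 41.5 FPKM in WT and 50.5, 51.9, 52.8 and 51.4 FPKM in KO co-culture. Those rises were 1.67 ± 0.11 and 1.63 ± 0.10. Its fall in KO co-culture (limma, adjusted p = 0.0204) was lost with no filter (0.0516) and without monoculture replicate 1 (0.0916). Leaving out KO co-culture replicate 1 (0.0628) or 3 (0.068) also ended that call. Gstm7 was at 3.96 to 6.12 FPKM in the 9 libraries without CXCR2i, with overlapping groups. Under CXCR2i it was at 13.5, 12 and 10.8 FPKM in WT and 17.3, 15.8, 19.7 and 16.6 FPKM in KO co-culture, rises of 1.24 ± 0.11 and 1.54 ± 0.10. Gstm3, below the filter, was at 0 to 0.0478 FPKM without and 0.296 to 0.665 FPKM with CXCR2i.

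The 2 mu genes that fell with CXCR2i did so by less. Gstm5 was at 7.23 to 10.4 FPKM in the 9 libraries without it, at 5.52, 5.35 and 4.26 FPKM in WT and at 4.83, 4.74, 4.45 and 5.47 FPKM in KO co-culture with it, with no overlap. It fell by 0.63 ± 0.12 (adjusted p = 0.000277) and 0.65 ± 0.11 (adjusted p = 0.00011) on the log2 scale. Gstm5 overlaps the antisense gene 4933431E20Rik (mean 0.967 FPKM), and whether counting used strand is not known from the sources used here. Gstm4 was at 2.41 to 3.22 FPKM in monoculture and 3.49 to 5.68 FPKM in the co-cultures without CXCR2i, rises of 0.41 ± 0.11 (WT) and 0.63 ± 0.11 (KO). Its falls with CXCR2i (-0.31 ± 0.11, adjusted p = 0.0255, and -0.26 ± 0.11, adjusted p = 0.043) came from overlapping groups and were lost in 5 and 14 of the 25 alternative settings. Gstm6 stayed below the filter at 0.149 to 0.999 FPKM.

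Of the 3 pi-class genes, Gstp3 and Gstp1 rose in co-culture and rose again with CXCR2i, and Gstp2 passed in no comparison. Gstp3 (ENSMUSG00000058216, chromosome 19, 4057477 to 4059446) was at 3.96, 2.83 and 3.93 FPKM in monoculture, 18, 17 and 17.6 FPKM in WT co-culture and 21.7, 25.4 and 25.9 FPKM in KO co-culture. The inhibitor groups were at 38.7, 37.9 and 33.5 FPKM in WT and 39.5, 43.2, 39.4 and 41.1 FPKM in KO co-culture. The 5 groups stood in that order with no overlap. It rose by 2.03 ± 0.09 (adjusted p = 7.98e-11) and 2.48 ± 0.09 (adjusted p = 9.25e-12) in WT and KO co-culture, and with CXCR2i by a further 1.02 ± 0.09 (adjusted p = 1.9e-07) and 0.72 ± 0.09 (adjusted p = 3.26e-06). Against monoculture the total rise with CXCR2i was 3.05 ± 0.09 in WT and 3.20 ± 0.09 in KO co-culture. None of its 100-base windows occurs in another gene.

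Gstp1 (chromosome 19, 4035407 to 4037921), the most abundant member, followed with smaller steps. It was at 206, 190.0 and 205 FPKM in monoculture, 264, 275 and 260.0 FPKM in WT and 247, 288 and 267 FPKM in KO co-culture. In the presence of CXCR2i it was at 331, 349.9 and 332 FPKM in WT and 319.7, 327, 319 and 349 FPKM in KO co-culture. Its rises were 0.41 ± 0.06 in both co-cultures and 0.34 ± 0.06 (WT) and 0.30 ± 0.05 (KO) with CXCR2i. Gstp1 made up 25.1% of the summed FPKM of all members in monoculture, 35.7% in WT co-culture and 34.1% in KO co-culture, and 27.1% (WT) and 24.2% (KO) with CXCR2i. It shares 25.1% of its windows with Gstp2, so fragments could be split between them. Gstp2 was at 0 to 2.10 FPKM in 14 libraries, at 6.64 FPKM in KO co-culture replicate 2 and at 4.77 FPKM in KO co-culture with CXCR2i replicate 4. It passed the threshold in no comparison, although its difference of KO from WT co-culture, 1.09 ± 0.61, was the highest of the 11395 genes.

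Of the theta class, Gstt1 and Gstt3 fell in both co-cultures and rose with CXCR2i, and Gstt2 did not share that pattern. Gstt1 (chromosome 10, 75783813 to 75798584), which acts on small halogenated compounds, was at 31.1, 31.4 and 30.4 FPKM in monoculture, 7.72, 10.3 and 9.15 FPKM in WT and 9.67, 10.7 and 8.55 FPKM in KO co-culture. Libraries with CXCR2i were at 15.6, 17.7 and 15.6 FPKM in WT and 23.0, 22.2, 21.6 and 18.8 FPKM in KO co-culture, between the other groups and without overlap. It fell by 1.68 ± 0.10 (adjusted p = 1.18e-09) and 1.59 ± 0.10 (adjusted p = 2.2e-09) and rose with CXCR2i by 0.79 ± 0.10 (adjusted p = 4.44e-06) and 1.07 ± 0.09 (adjusted p = 7.06e-08). It stayed below monoculture with CXCR2i, by -0.89 ± 0.10 (WT) and -0.52 ± 0.09 (KO). Gstt3 was at 1.77 to 2.66 FPKM in monoculture, 1.14 to 1.63 FPKM in the co-cultures and 2.63 to 3.31 FPKM with CXCR2i. Its falls were -0.42 ± 0.10 and -0.41 ± 0.10 and its rises 0.67 ± 0.10 and 0.75 ± 0.10. With CXCR2i it was above monoculture, by 0.25 ± 0.10 in WT (adjusted p = 0.0443, lost in 16 of 25 alternative settings) and 0.34 ± 0.10 in KO co-culture (adjusted p = 0.00571). It shares 10.8% of its windows with Gm20441. Gstt2 was at 2.05 to 3.74 FPKM without CXCR2i and 1.9 to 2.74 FPKM with it. It was higher in KO co-culture than in monoculture by 0.27 ± 0.11 (adjusted p = 0.0493), a call lost in 17 of the 25 settings, and in WT co-culture the difference was 0.16 ± 0.11 (adjusted p = 0.238). It fell with CXCR2i by 0.37 ± 0.11 (adjusted p = 0.00977) and 0.29 ± 0.11 (adjusted p = 0.0232). The first call was lost without WT co-culture replicate 2 (adjusted p = 0.0515), and the second without KO co-culture replicate 2 (0.116) or KO co-culture with CXCR2i replicate 2 (0.0531) or 4 (0.0534), with the replicate block (0.0654) and with no filter (0.0550).

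Omega, zeta and kappa GSTs have roles beyond toxin conjugation. Gsto1 (chromosome 19, 47854970 to 47864790), a thioltransferase and dehydroascorbate reductase, was at 152, 146 and 148 FPKM in monoculture, 198, 212 and 211 FPKM in WT and 205, 213 and 202 FPKM in KO co-culture. Under the inhibitor it was at 158, 168 and 167 FPKM in WT and 149.5, 153, 155 and 151 FPKM in KO co-culture. It rose by 0.47 ± 0.04 in both co-cultures and fell with CXCR2i by 0.33 ± 0.04 (adjusted p = 2.08e-06) and 0.44 ± 0.03 (adjusted p = 4.02e-08). Its opposite-strand neighbour Cfap43 (mean 3.58 FPKM) moved the other way, by 0.75 and 0.98 with CXCR2i. Gsto2, below the filter, was at 0.315 to 1.34 FPKM. Gstz1, which acts as maleylacetoacetate isomerase in tyrosine breakdown, was at 4.81 to 5.72 FPKM in monoculture, 6.05 to 7.66 FPKM in the co-cultures, 9.62 to 10.6 FPKM with CXCR2i in WT and 12 to 13.3 FPKM in KO co-culture. It rose in all 4 steps, by 0.26 ± 0.07 and 0.37 ± 0.07 in co-culture and 0.60 ± 0.07 and 0.77 ± 0.07 with CXCR2i. Its opposite-strand neighbour Pomt2 (mean 2.73 FPKM) changed by -0.57 and -0.50 with CXCR2i. Gstk1, a mitochondrial and peroxisomal form, was at 5.90 to 8.63 FPKM in all libraries. It passed only in KO co-culture with CXCR2i, by 0.18 ± 0.07 against KO co-culture (adjusted p = 0.0362) and 0.20 ± 0.07 against monoculture (adjusted p = 0.0222). Both calls were lost without replicate 2 of that group (adjusted p = 0.105 and 0.0594). They were also lost with quantile normalization (0.194 and 0.0687) and with only the libraries compared (0.085 and 0.057). The first was lost as well with no filter (0.0705) and without KO co-culture replicate 1 (0.124) or 2 (0.113). The second was lost as well without monoculture replicate 1 (0.0982) or 2 (0.0533).

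The microsomal GSTs are membrane proteins. Mgst1 (chromosome 6, 138140316 to 138156755), found in the endoplasmic reticulum and outer mitochondrial membrane, was at 65.9, 67.2 and 68.4 FPKM in monoculture, 21.1, 23.6 and 25.3 FPKM in WT and 28.8, 29.9 and 25.9 FPKM in KO co-culture. After CXCR2i it was at 75.1, 70.3 and 69.96 FPKM in WT and 80.7, 78.9, 86.4 and 76.1 FPKM in KO co-culture. It fell by 1.49 ± 0.07 (adjusted p = 6.11e-11) and 1.23 ± 0.07 (adjusted p = 6e-10), and rose with CXCR2i by 1.58 ± 0.07 (adjusted p = 3.3e-11) and 1.48 ± 0.06 (adjusted p = 2.56e-11). Mgst3 (chromosome 1, 167371966 to 167393841), related to leukotriene C4 synthase, was at 29.4, 28.4 and 29.0 FPKM in monoculture, 7.98, 10.2 and 11.6 FPKM in WT and 10.2, 11.3 and 11.9 FPKM in KO co-culture. The libraries given CXCR2i were at 27.0, 26.4 and 25.9 FPKM in WT and 25.7, 26.7, 28.1 and 27.4 FPKM in KO co-culture. It fell by 1.46 ± 0.09 and 1.31 ± 0.09 and rose with CXCR2i by 1.34 ± 0.09 and 1.21 ± 0.08, and with CXCR2i its difference from monoculture was -0.12 ± 0.09 (adjusted p = 0.239) in WT and -0.10 ± 0.08 (adjusted p = 0.326) in KO co-culture. Mgst2 was at 1.60 to 2.04 FPKM in the 9 libraries without CXCR2i and 3.09 to 3.49 FPKM with it, rises of 0.47 ± 0.05 and 0.67 ± 0.05.

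**Figure D3:**
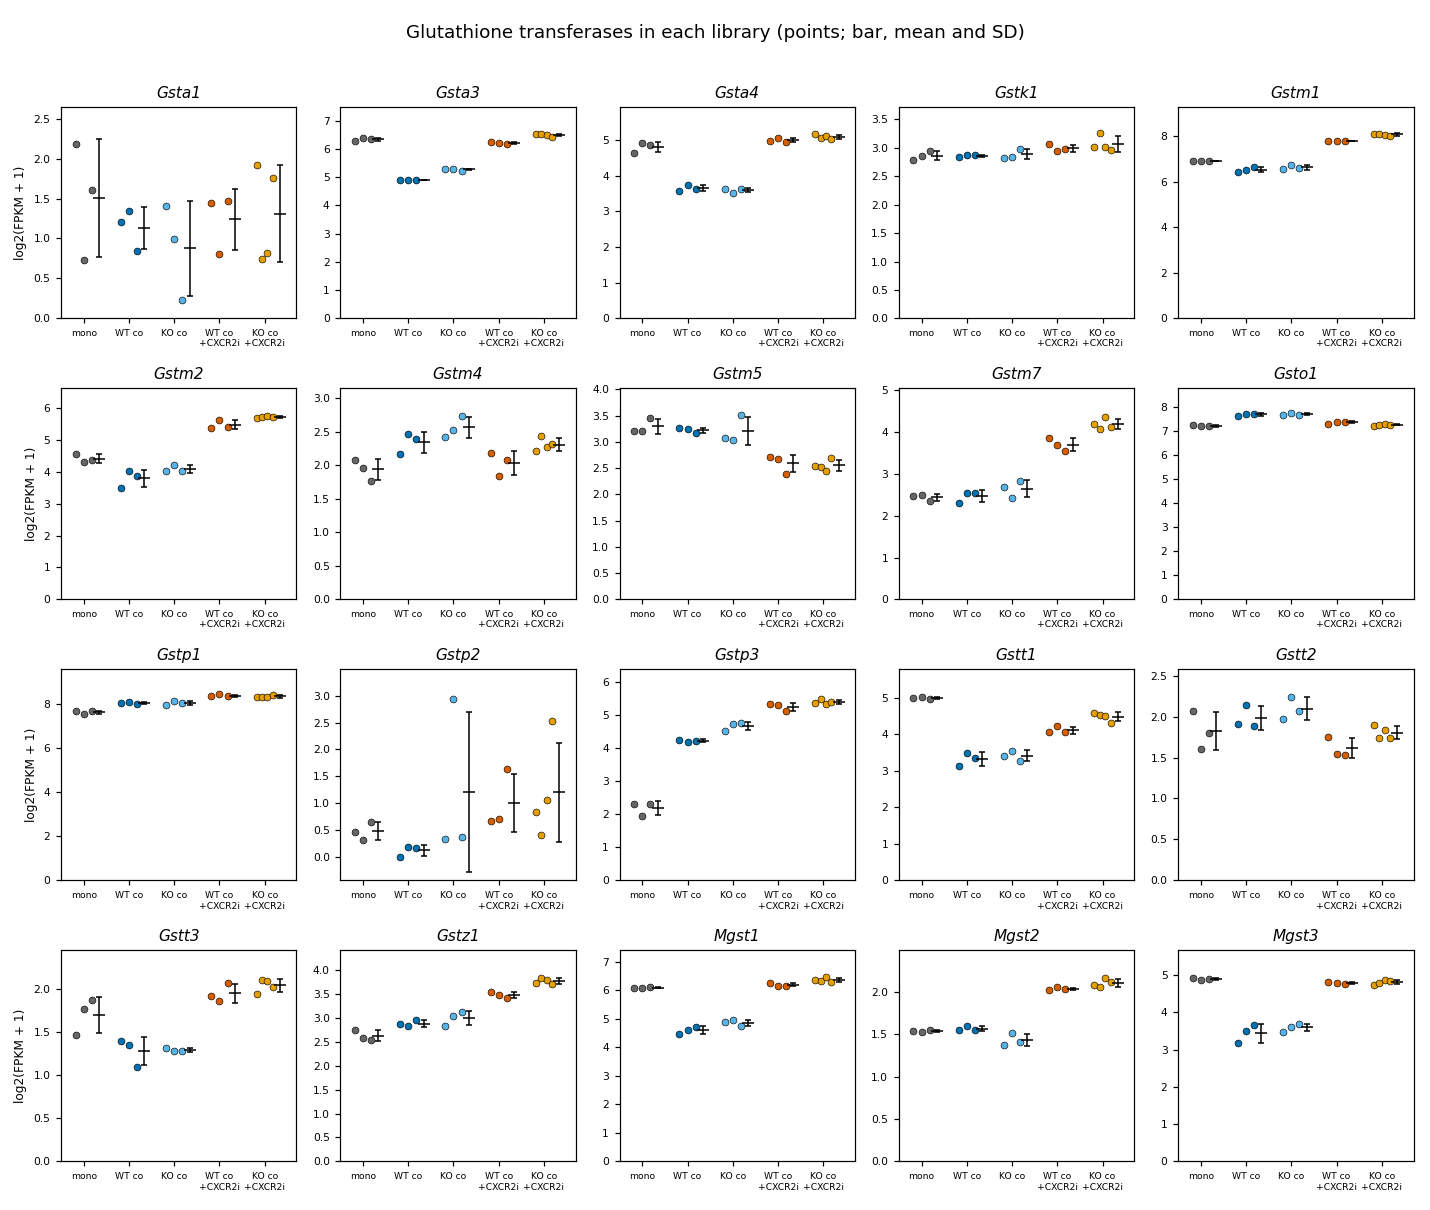
The 17 tested soluble GSTs and 3 microsomal GSTs, as log2(FPKM + 1) on the vertical axis (1 scale per panel, from 0 or just below) in each of the 16 libraries by group, with points for libraries and bars for mean and SD. Gsta3, Gsta4, Gstt1, Mgst1 and Mgst3 dip in both co-cultures, Gstp3 climbs over the groups from left to right, and Gstp2 and Gsta1 scatter within groups.

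Across classes, 13 members fell in WT co-culture and rose with CXCR2i there (Sult1a1, Sult1c2, Ugt1a7c, Ugt1a9, Ugt2b36, Gsta3, Gsta4, Gstm1, Gstm2, Gstt1, Gstt3, Mgst1 and Mgst3). In KO co-culture 12 did so, these without Sult1c2. Over all genes tested, 19% fell and rose in this way in WT and 18.6% in KO co-culture. Both comparisons behind such a count use the same co-culture libraries and are not independent.

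Against monoculture, the co-cultures with CXCR2i had 17 members higher and 3 lower in WT, and 21 higher and 2 lower in KO co-culture. Of all genes, 66.8% (32.1% higher, 34.7% lower) and 69.4% (33.3% higher, 36.1% lower) were called. At 2-fold or more, 8 and 10 members were higher and none lower, against 5.48% and 5.87% of all genes higher and 4.14% and 4.41% lower. The largest after Sult1a1 (3.71 and 3.93) were Gstp3, Sult1d1 (2.31 ± 0.11 and 2.55 ± 0.10), Ugt1a6b (1.57 ± 0.10 and 1.72 ± 0.09), Ugt2b34 (1.27 ± 0.10 and 1.60 ± 0.09) and Gstm7 (1.26 ± 0.11 and 1.75 ± 0.10). Gstm5 (-0.70 ± 0.12 and -0.74 ± 0.11) and Gstt1 stayed lower in both genotypes. The third lower member in WT, Gsta3 (-0.14 ± 0.04, adjusted p = 0.00429), was 0.02 (adjusted p = 0.732) after quantile normalization and lost its call under 2 other scalings. In KO co-culture Gsta3 was higher, by 0.14 ± 0.03 (adjusted p = 0.00182).

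Summed over all 67 members, the level was 785 to 804 FPKM in monoculture, 724 to 765 FPKM in WT and 752 to 824 FPKM in KO co-culture, and 1234 to 1261 FPKM (WT) and 1346 to 1365 FPKM (KO) with CXCR2i. The sum over sulfotransferases was 22.3 ± 0.624 FPKM (mean ± SD, n = 3) in monoculture, 11.7 ± 1.08 in WT and 14.0 ± 1.09 in KO co-culture, and 147 ± 4.01 and 169 ± 8.04 (n = 4) with CXCR2i. The UGT sum was 10.4 ± 0.446 FPKM in monoculture, 18.9 ± 2.47 in WT and 17.4 ± 1.35 in KO co-culture, and 27.5 ± 1.67 and 33.1 ± 0.918 with CXCR2i. The UGT sum was thus higher in co-culture than in monoculture while Ugt1a9 and Ugt2b36 were lower, since Ugt2b34 carried most of it.

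**Figure D4:**
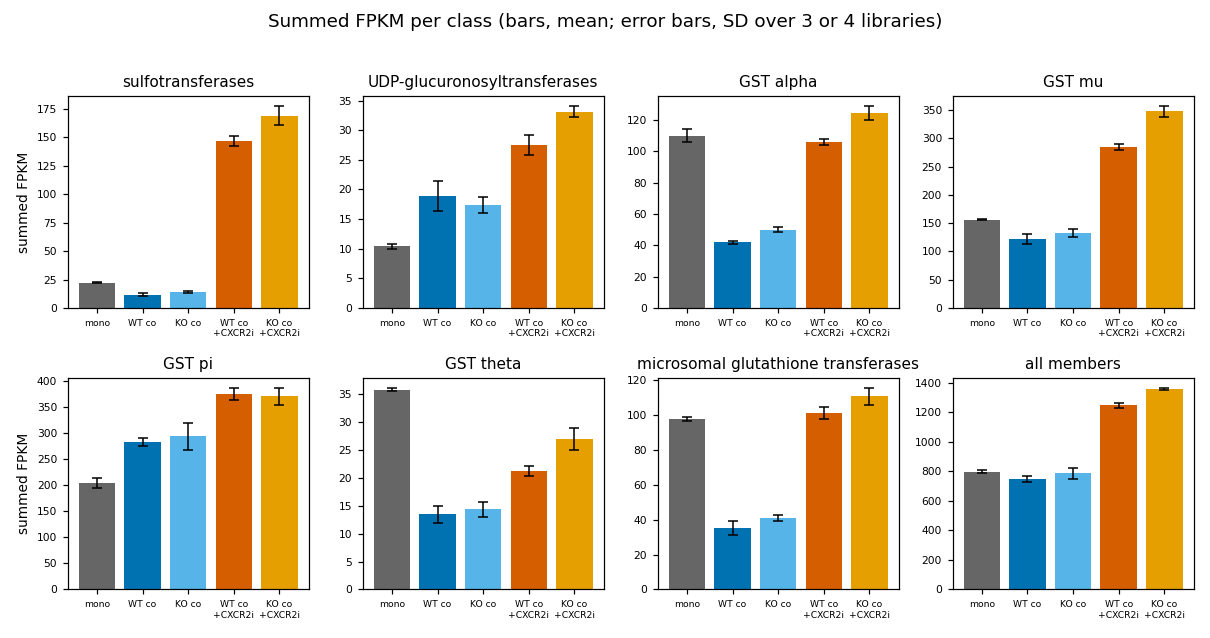
Summed FPKM (vertical axis from 0) in the 5 groups for sulfotransferases, UGTs, alpha, mu, pi and theta GSTs, microsomal GSTs and all members, with bars for means and error bars for SD over 3 or 4 libraries. Alpha, theta and microsomal GST sums are lower in both co-cultures than in monoculture, pi-class sums are higher, and the sums plotted are higher with CXCR2i than in the same co-culture without it, while the omega class, which is not plotted, is lower (165 and 153 against 208 and 207 FPKM).

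Few members separated KO from WT co-culture, where the cancer cells differ in Phgdh. The comparison called 3 members, all higher in KO, where 2.99% of all genes were called (1.65% higher). Gsta3 was higher by 0.37 ± 0.04 (adjusted p = 7.27e-05), with 36.7 to 38.3 FPKM against 28.9 to 29.1 FPKM, and the call was lost only when just the libraries compared were fitted (adjusted p = 0.0522). Gstp3 was higher by 0.45 ± 0.09 (adjusted p = 0.0186), and was lost without WT co-culture replicate 2 (0.0624) or 3 (0.0564) and without KO co-culture replicate 2 (0.0737) or 3 (0.0837). It was also lost with no filter (0.0501), the replicate block (0.0518) and only the libraries compared (0.154). Mgst1 was higher by 0.26 ± 0.07 (adjusted p = 0.0475), a call lost in 19 of 25 alternative settings, with adjusted p up to 0.389. For the other 25 a difference was not shown. For Sult1a1 it was 0.21 ± 0.10 (adjusted p = 0.384).

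With CXCR2i in both, 5 members were higher in KO than in WT co-culture and none lower, where 2.31% of all genes were called (1.66% higher). Gstm1 was higher by 0.29 ± 0.05 (adjusted p = 0.00813) and Gsta3 by 0.28 ± 0.03 (adjusted p = 0.000596), and both passed in all 25 alternative settings. Gstm7 (0.49 ± 0.10, adjusted p = 0.0206), Gstt1 (0.37 ± 0.09, adjusted p = 0.0484) and Gstz1 (0.28 ± 0.07, adjusted p = 0.0484) were lost in 7, 17 and 18 of them. The CXCR2i libraries of KO co-culture also had more of the hepatocyte markers (1114 to 1171 against 871 to 889 FPKM), whose part in these differences was not tested.

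The change with CXCR2i was also compared between genotypes. By limma 0 of the 28 members passed, where 0.816% of all genes did, with 5 at an unadjusted p under 0.05 (Ugt2b34, Mgst2, Gstm1, Sult1d1 and Gstp3). On recovered fragments limma-voom also called 0, with 4 at an unadjusted p under 0.05. This does not show that the responses were the same.

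The genes that supply and remove the conjugates are given from lists of known pathway members. Their counts stand beside 62% and 61.5% of all genes called in WT and KO co-culture, about evenly higher and lower. With CXCR2i 66.6% and 69.5% were called, again about evenly. Being called was thus common in these data, and whether a list departs from these shares was not tested. Listed genes were filtered by their mean over all libraries, which a gene high only with CXCR2i could pass. For the sulfate donor PAPS, none of 6 tested genes changed 2-fold in any of the 4 co-culture and CXCR2i comparisons. With CXCR2i 1 rose and 3 fell in WT, and 0 rose and 2 fell in KO co-culture (medians -0.12 and -0.11). Of 7 genes of UDP-glucuronate supply, 4 rose and 2 fell with CXCR2i in WT and 3 rose and 1 fell in KO co-culture (medians 0.19 and 0.11). The phosphoglucomutase gene Pgm2 rose most, by 1.10 ± 0.06 and 1.03 ± 0.06, and Ugdh, the enzyme that makes UDP-glucuronate, fell by 0.53 ± 0.05 and 0.47 ± 0.05.

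For glutathione synthesis and recycling, 11 genes were tested, of which 5 rose and 5 fell in WT and 5 rose and 6 fell in KO co-culture. Cth, the last step of cysteine synthesis, rose by 2.57 ± 0.05 and 2.42 ± 0.05, and the cystine importer Slc7a11 by 1.80 ± 0.06 and 1.55 ± 0.06. Chac1, which degrades glutathione, rose by 1.70 ± 0.10 and 1.57 ± 0.10, while glutathione reductase Gsr fell by 1.11 ± 0.04 and 1.21 ± 0.04. With CXCR2i 7 rose and 4 fell in both genotypes (medians 0.55 and 0.64), led by Cbs (1.61 ± 0.07 and 1.76 ± 0.06), which feeds cysteine synthesis, and Gclc (1.24 ± 0.06 and 1.35 ± 0.06), the rate-limiting glutathione synthesis subunit. Chac1 fell by 1.14 ± 0.10 and 1.05 ± 0.10. At 2-fold or more, 2 of the glutathione genes rose and 2 fell with CXCR2i in WT, and 3 rose and 1 fell in KO co-culture. The mean level of Gclc was 203.7 ± 4.80 FPKM (SD, n = 3) in monoculture, 121 ± 11.1 in WT and 123 ± 7.37 in KO co-culture, and 288 ± 13.2 and 315 ± 11.5 (n = 4) with CXCR2i.

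Of 10 conjugate exporters, 7 rose and 1 fell with CXCR2i in WT, and 8 rose and 1 fell in KO co-culture (medians 0.44 and 0.54). Abcb1a rose by 1.58 ± 0.06 and 1.98 ± 0.06 and Abcc6 by 1.22 ± 0.10 and 1.51 ± 0.10, while Abcc2, the canalicular exporter of conjugates, fell by 0.61 ± 0.05 and 0.48 ± 0.05. In co-culture 5 exporters rose and 2 fell in WT, and 5 rose and 3 fell in KO (medians 0.16 and 0.11). Abcg2, which exports sulfate conjugates, was among those that fell, by 1.40 ± 0.07 and 1.33 ± 0.07. Of 7 deconjugation and mercapturate genes, 2 rose and 5 fell with CXCR2i in both genotypes (medians -0.33 and -0.30).

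Among 15 tested regulators, 11 rose and 2 fell with CXCR2i in WT and 13 rose and 2 fell in KO co-culture (medians 0.50 and 0.81). Nr1i2 (PXR) rose by 1.45 ± 0.10 and 1.78 ± 0.09, Ppara by 1.51 ± 0.10 and 1.76 ± 0.09, and Cebpa by 1.35 ± 0.06 and 1.47 ± 0.06. In co-culture 6 regulators rose and 3 fell in WT, and 5 rose and 4 fell in KO (medians 0.09 and 0.06). Maff fell in co-culture (-1.03 ± 0.05 and -1.12 ± 0.05) and rose with CXCR2i (1.37 ± 0.05 and 1.54 ± 0.05), and Nfe2l1 fell with CXCR2i (-1.33 ± 0.06 and -1.16 ± 0.06). Of 14 NRF2 targets outside the conjugation genes, 10 fell and 1 rose in WT co-culture and 12 fell and 1 rose in KO co-culture, with medians of -0.50 and -0.46. The gene that rose was Slc7a11. The lists of NRF2 targets and glutathione genes share Gclc, Gclm, Gsr and Slc7a11, so their counts are not independent. With CXCR2i 8 rose and 2 fell in both genotypes (medians 0.33 and 0.37), and Akr1b8 rose by 1.17 ± 0.07 and 1.15 ± 0.07. At 2-fold or more, 2 of these targets rose in both genotypes, and 1 fell in WT and 0 in KO co-culture. Of 8 listed AHR targets only 3 passed the filter (Cyp1a1, Cyp1a2 and Tiparp). These 3 rose with CXCR2i, Cyp1a1 by 1.40 ± 0.06 and 1.85 ± 0.06. Cyp1a1 had also risen in co-culture, by 1.76 ± 0.06 and 1.49 ± 0.06. Over the 3 tested AHR targets, 1 was higher than in monoculture, 1 lower and 1 not called, in WT and KO co-culture alike.

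Of 14 tested conjugating or related enzymes outside the 3 classes, 11 rose and 2 fell with CXCR2i in WT and 10 rose and 2 fell in KO co-culture (medians 0.80 and 0.79). The methyltransferase genes Gnmt (2.13 ± 0.17 and 2.28 ± 0.16) and Inmt (1.83 ± 0.11 and 2.34 ± 0.10) rose, as did the epoxide hydrolase Ephx2 (1.22 ± 0.11 and 1.10 ± 0.10). The translation factor subunit Eef1g, which has a GST-like domain, fell by 1.06 ± 0.05 and 1.11 ± 0.05.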

How the data were processed

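Total RNA from 16 libraries in 5 groups was extracted with an RNeasy kit and sequenced by Novogene's protocols, per the labels' protocols. HISAT2 and the builds GRCm38 and mm10 are named per the submitters' processing notes. For the counting tool, annotation release, strand use and HISAT2 version the sources used here give nothing. The values were deposited by the authors as FPKM, 1 column per library, and were used without rescaling. FPKM times the table's gene length gave whole fragments (100% of values within 0.1 of a whole number), 15.0 to 21.3 M per library; this precision covers counting error only. The sum of fragments over the authors' divisor averaged 1.03 in monoculture, 1.00 in both co-cultures, and 0.972 and 0.971 with CXCR2i.

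Genes with a mean of at least 1 FPKM over all libraries (11395) were tested as log2(FPKM + 1) with limma 3.58.1 in R 4.3.3, in 1 fit with a mean per group, 11 residual degrees of freedom and trended variances. Two-sided p-values were adjusted by Benjamini-Hochberg in each of 9 comparisons over all genes, and 0.05 was the threshold. The fit was also run on simulated counts in which a single group differed, in few genes, and all genes had the same dispersion. Most genes were called against monoculture here, so that run does not give the error rates in these data. The labels give no batch. Alternatives were another pseudocount (0.1), no filter, a filter at 0.1 FPKM, quantile normalization, rescaling without mitochondrial and top 50 genes, limma-voom on recovered fragments, no trend, a replicate block, only the libraries compared, and leaving out each library.

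All members with a mean of at least 1 FPKM are named. Those changed 2-fold or more are described in full, up to 8 in each direction, and otherwise up to 4. Untested members are named where a library reaches 0.5 FPKM. Genes of the pathway lists are named from those that change 2-fold, but not every such gene is given. Ugdh, Abcc2 and Alb were chosen after their values were seen. The values of 1 gene of these lists are not reported here. Members and lists were chosen with earlier results of these data known. Gene coordinates are those of the table (GRCm38), and 63 of 67 members have the same ones in GENCODE M21. Shared sequence was counted in windows of 100 bases.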

Additional observations from a re-analysis of the deposited data

Results flagged for a closer look

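In KO co-culture with CXCR2i, the group of 4 libraries, 1 library lay far from the others for 2 of the 37 members that reached 0.5 FPKM. Gstk1 was at 8.63 FPKM in replicate 2 and at 6.76 to 7.06 FPKM in the other 3 (gap over range 0.839, past Dixon's 95% critical value). Gstp2 was at 4.77 FPKM in replicate 4 and at 0.325 to 1.07 FPKM in the others (gap over range 0.832). Chance marks about 1 in 20 such groups. No member's change with CXCR2i differed between genotypes at the threshold.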

How the results depend on the processing

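Of 141 calls of members over the comparisons, 120 stayed past the threshold with the same sign in all 25 alternative settings (9 analytic settings and 16 that left out 1 library each), and 21 were lost in at least 1. The only reversed value was Gsta3 in WT co-culture with CXCR2i against monoculture, 0.0157 after quantile normalization. The number of members called for KO against WT co-culture (3) was 1 with no filter, 1 with the replicate block and 0 with only the libraries compared, and 1 to 3 when 1 library was left out. With CXCR2i in both (5), it was 3 with a pseudocount of 0.1, 3 with no filter, 2 with limma-voom, 3 with no trend and 3 with the replicate block, and 2 to 6 when 1 library was left out. Leaving out 1 library gave 18 to 20 calls for WT and 17 to 19 for KO co-culture against monoculture, 18 to 20 and 21 to 23 for those with CXCR2i against monoculture, 23 to 26 for CXCR2i in either genotype, and 0 for the difference between genotypes. Same-numbered libraries did not deviate together (30 pairs, correlations -0.300 to 0.270, median 0.0104; 3 of 15 libraries correlated best with their own number), so the numbers were not taken to pair the libraries; the replicate block lost 10 of the 141 calls. Depth limits the low members: Sult1a1 rested on 3 to 10 fragments per library in WT co-culture and Ugt1a9 on 1 to 6, so the size of their rises is less certain than the direction. Scaling moved the median of all genes by less than 0.1 on the log2 scale.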
